A study of Drosophila melanogaster with 6 samples.

Results

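RNA-Seq of *Drosophila* heads gave values for 7 cytochrome P450 genes and 1 UDP-glycosyltransferase gene that were lower 4 hr after penetrating traumatic brain injury (PTBI). The genes are *Cyp4d21*, *Cyp4ac1*, *Cyp6t1*, *Cyp12d1-p*, *Cyp12d1-d*, *Cyp9h1*, *Cyp304a1* and *Ugt37A3* (listed under its older symbol *CG5999*). They were taken by symbol, and all 8 were found, among 367 listed genes, of which 108 were listed as lower and 259 as higher. The listing itself was restricted by the authors to genes with at least a 2-fold change and an adjusted p below 0.05 in these same samples. The fall of the 8 genes was therefore known when they were chosen, and their values are a description of it. A gene outside the listing has no value here and is called not listed.

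The injured group comprised 3 samples of heads of adult males from the cross of w; UAS-mCD8-GFP;; OK107-GAL4 with yw, taken 4 hr after a needle injury to both sides of the central brain. The uninjured group comprised 3 samples of heads of males of the same cross, age and sex without injury. Both groups thus carry the *OK107-GAL4* driver, which is active in the mushroom body, and a membrane GFP reporter. The series description gives males collected up to 6 hr after eclosion and pools of about 100 to 120 heads, and the labels call the samples biological replicates. The library sizes implied by the values were 24.3 to 35.2 M reads (M, mega) after PTBI and 26.5 to 36.2 M reads in uninjured samples. None of the photoreceptor (10 genes) or neuron (8 genes) markers looked up was listed, so the labelled tissue was not checked from them.

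Cytochromes P450 are haem enzymes that insert an oxygen atom into hormones, fatty acids and foreign compounds. Most insect P450s sit in the endoplasmic reticulum and take electrons from Cpr, whereas those of the CYP12 family are mitochondrial and take them from a ferredoxin. UDP-glycosyltransferases (UGTs) act at the next step of detoxification and attach a sugar to the product, which makes it easier to excrete. In flies much of this work is done in fat body, midgut and Malpighian tubule, and of these the fat body is also present in the head.

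All 8 genes had every PTBI sample below every uninjured sample. So did all 108 genes listed as lower (29.4% of all listed genes), a separation that follows from how the listing was made. Levels of the 8 genes are given as RPKM (reads per kilobase of gene and M library reads). Folds are ratios of group means, with the SD over the 3 samples of a group. *Ugt37A3* fell 7.38-fold, *Cyp6t1* 3.42-fold, and the other 6 genes by 2.16-fold to 2.45-fold. The median over all 8 genes was 2.37-fold, beside 2.51-fold for the 108 genes listed as lower. Summed over the 8 genes, the level was 54.3 ± 13.6 RPKM after PTBI and 127 ± 25.1 RPKM in uninjured heads (SD, n = 3 each). *Cyp4d21* alone made up 56.7% of this sum after PTBI and 52.3% in uninjured heads. Without it the sums were 23.5 ± 3.76 RPKM and 60.6 ± 8.29 RPKM.

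**Figure D1:**
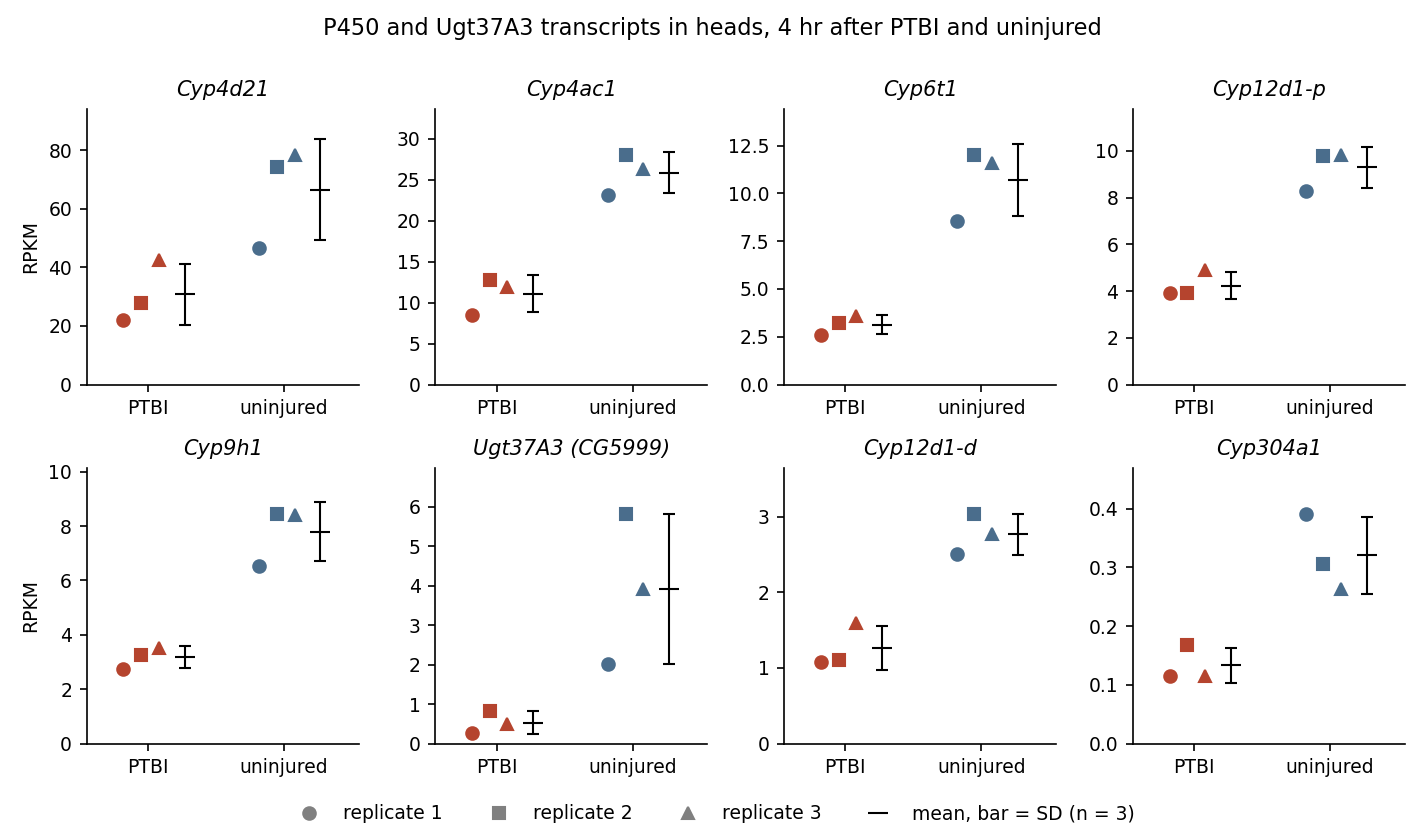
RPKM (linear axes from 0) of each gene in the 3 PTBI samples, left, and the 3 uninjured samples, right, with the mean and SD beside them. The groups do not overlap in any panel, and the narrowest gap as a ratio (1.10) is in *Cyp4d21*, between 42.4 RPKM in PTBI replicate 3 and 46.7 RPKM in uninjured replicate 1.

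*Cyp4d21*, also known as *sxe1*, is a CYP4 gene with sex-specific expression in the head fat body, where it is higher in males (chromosome 2L, 7605600 to 7607701, plus strand, BDGP6). It was at 22.1, 27.8 and 42.4 RPKM in PTBI samples 1, 2 and 3, against 46.7, 74.2 and 78.4 RPKM in uninjured samples 1, 2 and 3. It was the most abundant of the 8 genes in every sample and also had the narrowest gap, since the highest PTBI sample came within 1.10-fold of the lowest uninjured one. Its means were 30.8 ± 10.5 RPKM after PTBI and 66.4 ± 17.2 RPKM in uninjured heads (SD, n = 3 each), 2.16-fold lower, the smallest fold of the 8. *Cyp4ac1*, the other CYP4 gene (chromosome 2L, 5264001 to 5265899, plus strand), was at 8.53, 12.7 and 11.9 RPKM after PTBI, against 23.1, 28.0 and 26.3 RPKM in uninjured heads. Every uninjured sample was at least 1.82-fold above the highest PTBI sample, and the means were 11.1 ± 2.23 and 25.8 ± 2.47 RPKM (SD, n = 3 each). CYP4 enzymes are best known as fatty acid hydroxylases. *Cyp4ac1* is the first of 3 neighbouring *Cyp4ac* genes on the same strand, and *Cyp4ac2* (0.49 kb away) and *Cyp4ac3* (2.60 kb away) were not listed.

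*Cyp6t1* (chromosome X, 21517434 to 21519218, minus strand, 1 exon) belongs to the CYP6 family, which holds many of the insect enzymes that oxidize plant compounds and insecticides. It was at 2.60, 3.20 and 3.58 RPKM after PTBI and at 8.54, 12.02 and 11.6 RPKM in uninjured heads. The means were 3.13 ± 0.497 and 10.7 ± 1.90 RPKM (SD, n = 3 each), the largest fold among the P450 genes, and the lowest uninjured sample was 2.38-fold above the highest PTBI sample. *Cyp9h1* (chromosome 2R, 12840813 to 12842558, minus strand), the single gene of the CYP9H subfamily, had 2.74, 3.28 and 3.53 RPKM after PTBI, against 6.54, 8.45 and 8.39 RPKM in uninjured heads. With means of 3.19 ± 0.403 and 7.79 ± 1.09 RPKM (SD, n = 3 each) it was 2.45-fold lower. After PTBI the levels of *Cyp6t1* and *Cyp9h1* lay within each other's SD, whereas in uninjured heads *Cyp6t1* was higher in each sample.

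*Cyp12d1-p* and *Cyp12d1-d* are tandem copies that encode mitochondrial P450s, a locus known for its induction by foreign compounds and for a role in insecticide resistance. They lie 1.77 kb apart on the minus strand of chromosome 2R (11117225 to 11121884 and 11123658 to 11125647). *Cyp12d1-p* was at 3.91, 3.91 and 4.89 RPKM after PTBI and at 8.29, 9.79 and 9.84 RPKM in uninjured heads. *Cyp12d1-d* was at 1.08, 1.11 and 1.60 RPKM after PTBI and at 2.50, 3.04 and 2.77 RPKM in uninjured heads. Both copies were thus lower by nearly the same fold, 2.20-fold for *Cyp12d1-p* and 2.19-fold for *Cyp12d1-d*.

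The copies are near-identical, and the sources used here do not say how reads matching both were assigned, so the share of each copy is uncertain. Reads of *Cyp12d1-p* outnumbered those of *Cyp12d1-d* by 8.41 ± 0.750 to 1 after PTBI and by 8.32 ± 0.425 to 1 in uninjured samples (SD, n = 3 each), a difference smaller than the spread. Taken as 1 locus, the summed level was 5.50 ± 0.858 RPKM after PTBI and 12.1 ± 1.12 RPKM in uninjured heads, 2.19-fold lower. This sum adds RPKM that divide by unlike lengths, 4482 bases for *Cyp12d1-p* and 1812 bases for *Cyp12d1-d*, so its level could be too low. The level of *Cyp12d1-p* also depends on the gene model. Its 2 annotated transcripts are 1741 and 4482 bases long, and the deposited RPKM divide by 4482 bases. If every counted read lay in the shorter transcript, they would be 2.57 times higher, with the fold unchanged. That would give 10.9 ± 1.46 RPKM after PTBI and 24.0 ± 2.27 RPKM in uninjured heads. Where the reads lie is not known here, so these levels are upper limits.

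*Cyp304a1* (chromosome 3R, 12963791 to 12965923, plus strand) was the least abundant of the 8 genes, at 0.116, 0.168 and 0.116 RPKM after PTBI, against 0.391, 0.306 and 0.263 RPKM in uninjured heads. These values stand for 6, 7 and 7 reads in the PTBI samples and 20, 19 and 12 reads in the uninjured samples. From the pooled reads, 20 after PTBI and 51 in uninjured samples, it was 2.47-fold lower per library read, with an exact binomial 95% interval of 1.45 to 4.38 that covers counting error only. Reads from PCR-amplified libraries are not independent molecules, so such intervals are too narrow.

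*Ugt37A3* (chromosome 3R, 12741958 to 12743680, minus strand) had the largest fold and the widest spread of the 8 genes. It was at 0.258, 0.838 and 0.495 RPKM after PTBI, on 13, 34 and 29 reads. In uninjured heads it was at 2.01, 5.82 and 3.91 RPKM, on 100, 351 and 173 reads. The means were 0.530 ± 0.291 and 3.92 ± 1.90 RPKM (SD, n = 3 each), and the lowest uninjured sample was 2.40-fold above the highest PTBI sample. The fold ranged from 5.59 without uninjured replicate 2 to 10.4 without PTBI replicate 2. The fold ranked 5th among the 108 genes listed as lower. Its neighbour *Ugt37A2*, 0.54 kb away on the opposite strand, was not listed.

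A second UGT of this family, *Ugt37B1*, was also listed as lower, so that 2 of the 8 annotated *Ugt37* genes were listed. It was at 0.171, 0.189 and 0.376 RPKM after PTBI and at 0.501, 0.906 and 1.10 RPKM in uninjured heads, 3.41-fold lower, on 9, 8 and 23 reads against 26, 57 and 51 reads.

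By mean RPKM as deposited, *Cyp4d21* was first and *Cyp4ac1* second in both groups. In uninjured heads *Cyp6t1* (10.7 ± 1.90 RPKM) and *Cyp12d1-p* (9.31 ± 0.881 RPKM) followed, and these neighbours differed by less than the larger SD. *Cyp9h1* came next, then *Ugt37A3* (3.92 ± 1.90 RPKM) and *Cyp12d1-d* (2.77 ± 0.268 RPKM), which also differed by less than the larger SD. After PTBI *Cyp12d1-p* ranked above *Cyp6t1*, and *Cyp12d1-d* (1.26 ± 0.293 RPKM) above *Ugt37A3* (0.530 ± 0.291 RPKM). The place of *Cyp12d1-p* in this order depends on its length. With all its reads on the shorter transcript, which is not known, it would be at 10.1, 10.1 and 12.6 RPKM in PTBI samples 1, 2 and 3. These upper limits lie above *Cyp4ac1* in samples 1 and 3, and such limits lie above *Cyp6t1* in every sample of both groups.

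PTBI replicate 1 was the lowest PTBI sample in all 8 genes, compared with 54 of the 108 genes listed as lower. Uninjured replicate 1 was the lowest uninjured sample in 7 of the 8, the exception being *Cyp304a1*, where it was the highest, compared with 46 of the 108. Folds between samples of the same number are a description, since the labels do not establish a pairing. By number, *Ugt37A3* was 7.79-fold, 6.95-fold and 7.90-fold lower in pairs 1, 2 and 3, a narrower range than its levels. *Cyp9h1* was 2.38-fold, 2.58-fold and 2.37-fold lower and *Cyp6t1* 3.29-fold, 3.76-fold and 3.23-fold lower. Folds under 2 were seen in pair 3 for *Cyp4d21* (1.85) and *Cyp12d1-d* (1.73), and in pair 2 for *Cyp304a1* (1.83).

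**Figure D2:**
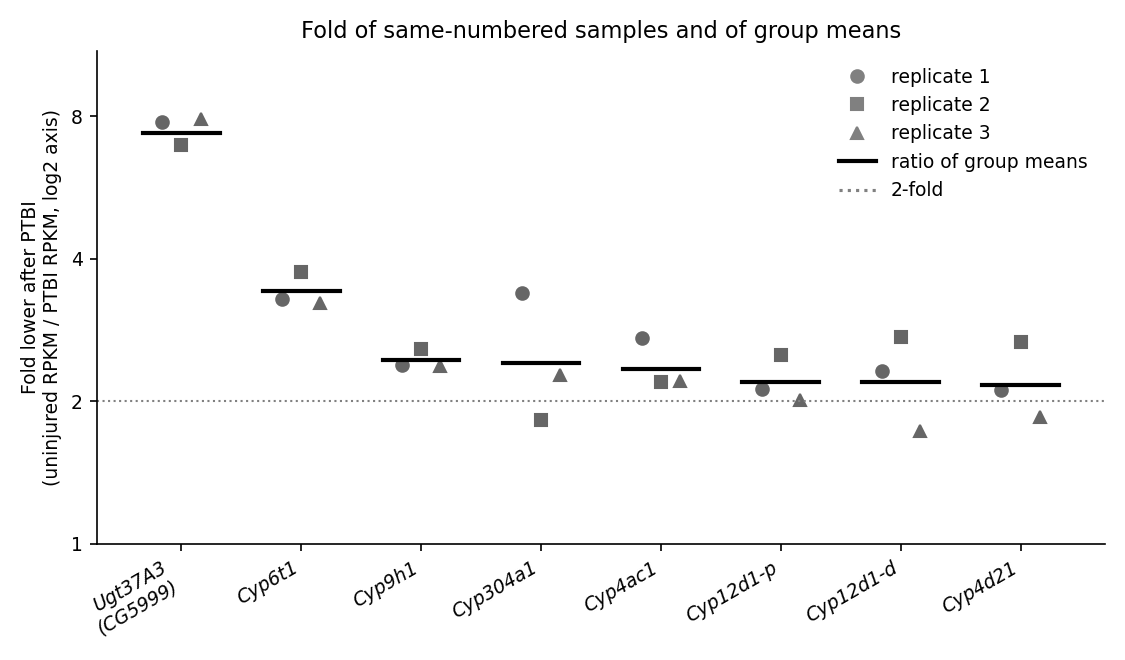
Fold by which each gene was lower after PTBI (log2 axis), for the 3 pairs of samples that share a replicate number (symbols) and for the group means (bars), with 2-fold dotted. *Ugt37A3* lies near 7 to 8 in all pairs and *Cyp6t1* above 3. A single value each of *Cyp4d21*, *Cyp12d1-d* and *Cyp304a1* lies below 2. The labels do not establish a pairing.

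Whole reads could be recovered from the RPKM for all 8 genes, which allows the spread between samples to be set beside the spread that counting alone would give. *Cyp4d21*, with 5164 reads after PTBI and 11210 in uninjured samples, had a coefficient of variation (SD over mean) of 34.0% after PTBI, where counting alone gives 2.41%, and of 25.9% in uninjured samples, where it gives 1.64%. *Ugt37A3* varied by 55.0% after PTBI, with 19.9% from counting, and by 48.6% in uninjured samples, with 6.93% from counting. For *Cyp304a1* the relation was the other way round, at 22.4% after PTBI with 38.7% from counting and 20.3% in uninjured samples with 24.2% from counting. For the other 7 genes the observed value was above the counting value in both groups, least so for *Cyp12d1-d* in uninjured samples (9.70% with 8.02% from counting). A coefficient of variation from 3 samples is itself imprecise, and these values were not tested.

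**Figure D3:**
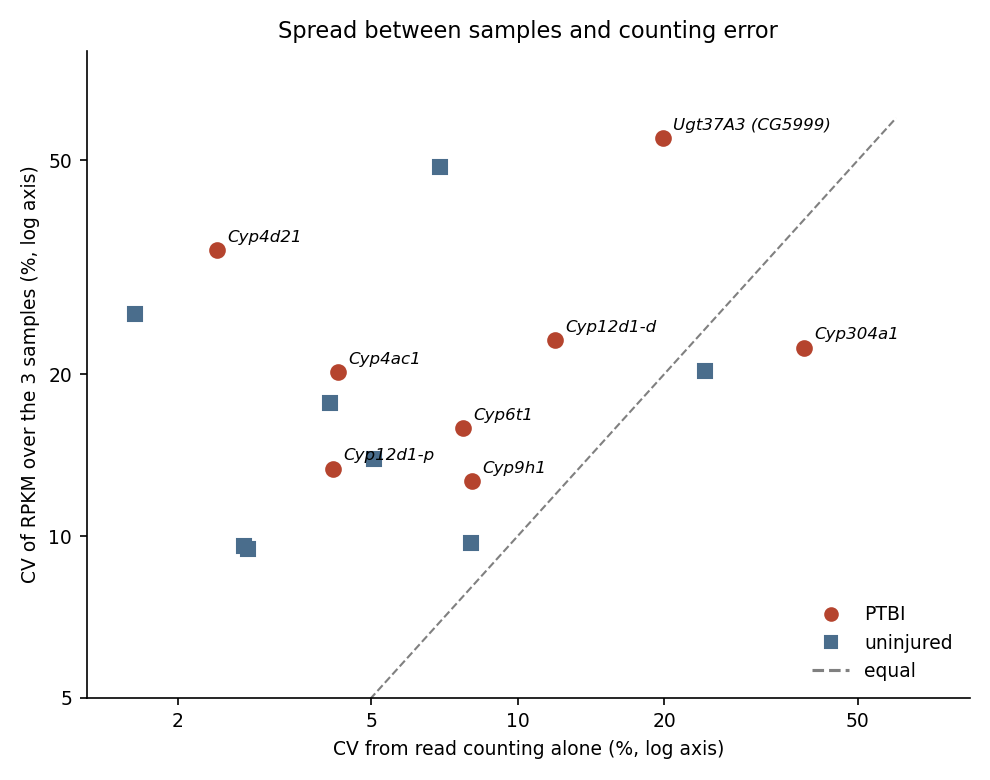
Coefficient of variation of RPKM over the 3 samples of a group against the value expected from the number of reads alone (both in percent, log axes), for PTBI (circles, named) and uninjured samples (squares), with equality dashed. Both points of *Cyp304a1* lie below the line and those of the other 7 genes above it.

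limma was fitted to log2(RPKM + 1) of all 367 listed genes, with Benjamini-Hochberg adjustment over them. It called 28.9% of the listed genes lower after PTBI at an adjusted p under 0.05, and 98.1% of those listed as lower. The calls were 106 lower and 248 higher, and 126 lower and 161 higher after subtracting from each sample its own median across listed genes. That median rises with the many genes listed as higher, so subtracting it shifts every fold change downwards. All 8 genes were called lower on both scales, which against such a background is no result about them. Adding 1 to the RPKM makes the fold changes of low genes smaller. The log2 fold change was -1.50 for *Cyp6t1* (standard error 0.16, adjusted p = 0.00014) and -1.62 for *Ugt37A3* (standard error 0.30, adjusted p = 0.00191). *Cyp4d21* had -1.10 (standard error 0.29, adjusted p = 0.00828) and *Cyp4ac1* -1.17 (standard error 0.16, adjusted p = 0.000489). For *Cyp9h1* it was -1.07, for *Cyp12d1-p* -0.98 and for *Cyp12d1-d* -0.74, with adjusted p from 0.000268 to 0.00113. The median was -1.08 over the 8 genes, -1.07 over the genes listed as lower and 0.90 over all listed genes.

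*Cyp304a1* was the weakest call, at -0.22 (standard error 0.09, adjusted p = 0.0459). With the replicate number as a block it was not called (adjusted p = 0.0688). Over its alternatives the limma adjusted p ran from 0.000218 to 0.144. The lowest came from centring on sample medians, which shifts every fold change downwards, and the highest from leaving out uninjured replicate 1. It lost the call when any 1 of the 6 samples was left out (adjusted p 0.0505 to 0.144). Taken gene by gene, the two-sided exact permutation test gave p = 0.1 for each of the 8, the smallest value that 3 samples against 3 allow. The groups did not overlap in any of the 367 listed genes (108 lower and 259 higher). Every listed gene therefore has this p, and it is no support for the 8.

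Most P450 and UGT genes were not listed. Of 93 annotated P450 genes (2 of them pseudogenes), 7 were listed as lower (7.53%), none as higher and 86 were not listed. Of 35 UGT genes, 2 were listed as lower (5.71%) and none as higher. Over all 13986 annotated protein-coding genes, 0.708% were listed as lower and 1.69% as higher. The number of these genes that were expressed and tested is not known from the listing, so the shares are not compared further. The listed P450s were spread over families, with 1 of 25 CYP6 genes, 2 of 22 CYP4 genes, 2 of 7 CYP12 genes, 1 of 6 CYP9 genes and *Cyp304a1*. None of 10 genes of ecdysone synthesis and turnover was listed, among them the P450 genes *dib*, *sad*, *shd* and *spo*. The 5 genes that pass electrons to P450s, such as *Cpr*, 9 genes of juvenile hormone metabolism and response, and 7 regulators of xenobiotic responses, such as *cnc* and *Keap1*, were not listed either.

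Of 35 annotated glutathione S-transferase genes, whose products conjugate electrophiles to glutathione, 3 were listed, all as higher and all of the GstD class, and 32 were not listed. *GstD2* was at 22.4 ± 5.26 RPKM after PTBI and 5.67 ± 0.924 RPKM in uninjured heads, and *GstD9* at 48.4 ± 12.8 and 19.6 ± 1.67 RPKM (SD, n = 3 each). *GstD5* was at 3.65 ± 0.877 RPKM after PTBI and 0.46 ± 0.10 RPKM in uninjured heads, 7.94-fold higher. The carboxylesterase list held 14 genes (the *alpha-Est* genes, *Est-6*, *Jhe* and *Jhedup*) and not the whole family. Of these, *Est-6*, an esterase secreted into haemolymph, was listed as lower, at 104 ± 21.5 RPKM after PTBI and 290 ± 39.3 RPKM in uninjured heads. *Est-Q*, an esterase by its symbol but outside that list, was listed as lower too, at 8.51 ± 1.39 and 21.3 ± 1.10 RPKM (SD, n = 3 each). Only 5 ABC transporter genes were looked up, a chosen list and not the family, so no count of listed transporters is given. Of these 5, *Mdr65*, an efflux pump of the glial blood-brain barrier, was listed as lower, at 13.8 ± 0.610 and 36.3 ± 2.92 RPKM (SD, n = 3 each).

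**Figure D4:**
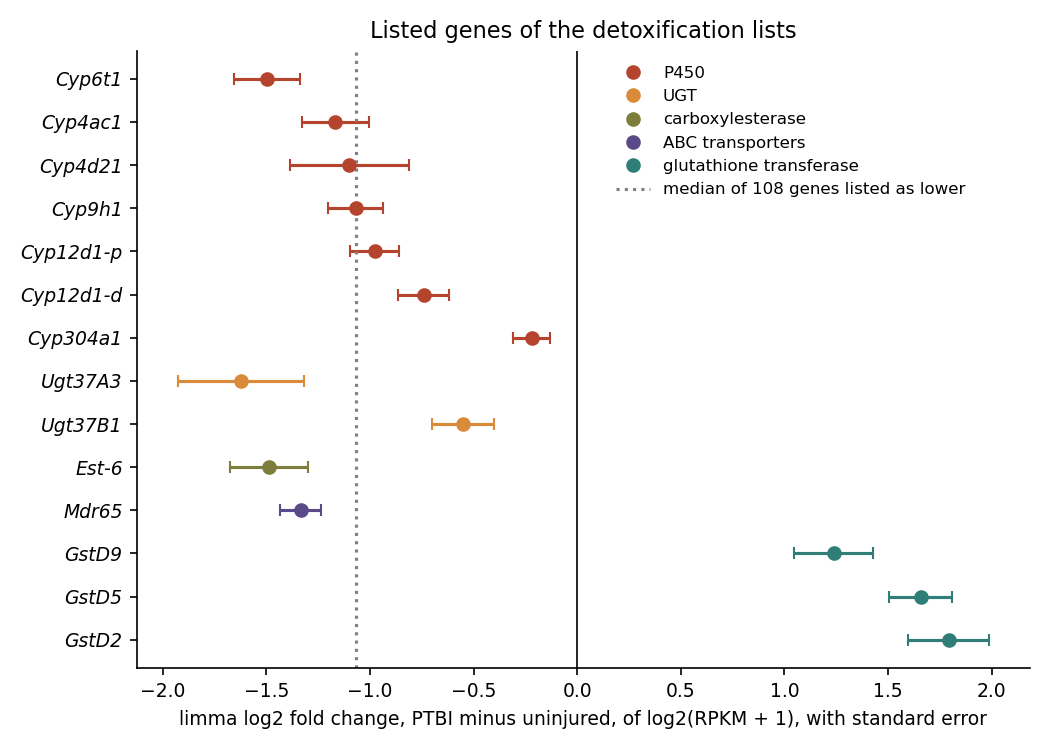
limma log2 fold change of log2(RPKM + 1), PTBI minus uninjured, with its standard error, for every listed gene of the P450, UGT, carboxylesterase, ABC transporter and glutathione transferase lists. The carboxylesterase and ABC transporter lists are chosen genes, not whole families. The P450, UGT, *Est-6* and *Mdr65* points lie below 0, from -1.62 to -0.22, and the 3 *GstD* points above it, from 1.24 to 1.79; the dotted line marks the median of the 108 genes listed as lower.

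Some markers of the fat body were lower in the same samples. Of 15 genes on this list, 6 were listed as lower, none as higher and 9 were not listed. Over all 13986 annotated protein-coding genes, 0.708% were listed as lower. The marker lists in this paragraph are short and were chosen with earlier results of these data known. Their counts are therefore no evidence about a tissue. The 6 fat body genes were *Lsp1alpha*, *Lsp1beta*, *Lsp2*, *fit*, *apolpp* and *tobi*. The summed level of the 6 was 141 to 334 RPKM in the PTBI samples and 1150 to 1809 RPKM in the uninjured samples. None of the 6 was at 0. *Lsp2*, a larval storage protein gene, fell 11.8-fold and *apolpp*, the lipophorin precursor, 2.72-fold. The glial markers *wrapper* and *Mdr65* were also listed as lower (2 of 8 glial genes, summed level 20.9 to 22.8 RPKM after PTBI and 58.9 to 64.8 RPKM in uninjured heads). Of 5 Malpighian tubule and oenocyte markers, *FASN2* was listed as lower, at 0.982 ± 0.248 and 2.83 ± 0.511 RPKM (SD, n = 3 each), and no haemocyte marker (0 of 6) was listed. Of the salivary gland markers 2 of 6 were listed as lower, *Sgs3* and *Sgs5*, both at 0 in every PTBI sample. Both were already low and uneven in uninjured heads, with a summed level of 0.407 to 2.78 RPKM. In uninjured samples 1, 2 and 3 *Sgs3* had 43, 23 and 5 reads and *Sgs5* had 28, 14 and 4 reads. Of 8 antennal genes 2 were listed as lower and 1 as higher. In bulk heads, fewer cells of a type and less RNA per cell cannot be told apart, and the part of any cell type in the fall of the P450 genes was not tested.

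*sxe2*, a lipase gene described together with *sxe1* (*Cyp4d21*) for its sex-specific expression in the head, was named here after its values were seen. It was listed as lower too, at 64.7, 63.1 and 84.4 RPKM after PTBI and at 133, 169 and 174 RPKM in uninjured heads, 2.24-fold lower.

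The genes outside the 8 whose log2(RPKM + 1) over the 6 samples was most like the mean profile of the 8 were *CG7322* (Pearson r = 0.997), *Est-6* (0.994), *CG18547* (0.994), *ana* (0.990) and *Gip* (0.990). All 5 were listed as lower. These 6 points fall into the 2 groups, so such values mostly restate the listing and carry no test.

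Near the 8 genes, few others were listed. Within 50 kb, *CG13231* was listed as lower 20.6 kb from *Cyp12d1-d*, on the opposite strand, and *yellow-f*, of the melanin pathway, as higher 25.5 kb from *Cyp304a1*. The bodies of *Cyp6t1*, *Cyp4ac1* and *Cyp304a1* overlap another annotated gene, but no exon of the 8 genes shares a base with an exon of another gene.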

How the data were processed

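The authors mapped single-end 50 bp reads from strand-specific libraries to the FlyBase genome with Subjunc (Subread), counted reads per gene and normalized and tested them with voom and limma; releases and versions are not given in the sources used here. The deposited RPKM of the 6 samples are the authors' values for the listed genes. The deposited mean expression, fold changes and p-values of the authors' comparison were not used. Members and gene lists were chosen with earlier results of these data known. By rule, the named genes were the 8 members, every listed gene of the detoxification and hormone lists, and the 5 most similar genes. Marker genes, *sxe2*, *Est-Q*, *CG13231* and *yellow-f* were named outside this rule, after their values were seen.

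Identifiers were joined to Ensembl 115 (BDGP6), where 360 of 367 were found, and older symbols and aliases came from RefSeq. The build of the files is not stated, but exon lengths of this annotation turned the RPKM of 357 genes into whole reads in all 6 samples (within 0.02 reads) at 1 library size per sample. The test used limma 3.58.1 (R 4.3.3), without a block, on log2(RPKM + 1). It was also run on simulated reads with a fixed dispersion and with unchanged genes. This listing differs in both, so that run does not measure errors here. Deviations from group means correlated weakly between same-numbered samples (0.24, 0.12 and 0.16 over listed genes, all above the limit of 0.1). Folds of same-numbered samples are therefore shown, and blocked values are given where they change a call. All other fits and adjusted p are unblocked. The labels give no shared day or batch for a number, so a pairing is not established. Alternatives covered pseudocounts of 0.1 and 5, a filter at a mean of 1 RPKM, a replicate block, centring, recovered reads, group medians, summed copies, alias matching and each sample left out. Protein and promoter sequences were not used here. Summaries used pandas 2.3.3 and numpy 2.4.6 under Python 3.11.15, exact tests scipy 1.17.1, and plots matplotlib 3.10.9.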

Additional observations from a re-analysis of the deposited data

How the results depend on the processing

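All 8 genes stayed lower under the 12 alternative fits (*Cyp304a1*, at under 1 RPKM, was left out by the filter). *Cyp304a1* lost its call under 8 of its 11 alternatives, with adjusted p from 0.0505 to 0.144 in limma. Among these were a pseudocount of 5 (0.136) and the replicate block (0.0688), which changed no other call among the 8. *Cyp304a1* kept its call in limma with a pseudocount of 0.1 (adjusted p = 0.00214), on recovered reads (0.00157) and after centring (0.000218). The other 7 genes kept theirs, with adjusted p up to 0.0301. Leaving out 1 sample left 7 of 8 called. The listed genes called were 106 lower and 248 higher. Centring each sample on its median over the listed genes, which was 0.66 (log2) higher after PTBI, gave 126 lower and 161 higher, with all 8 genes called lower. Most listed genes were higher, so that median follows the listing, and centring shifts every fold change downwards. It is therefore no check on genes called lower. The replicate block gave 104 lower and 247 higher. Leaving out samples moved the fold from 1.89 to 2.66 for *Cyp4d21*. At 20 reads after PTBI, depth limits *Cyp304a1* most.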
